A study of Mus musculus with 5 samples.

Results

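The genes described here are 35 genes of glutathione metabolism, the NRF2 response and the defence against ferroptosis, followed in mouse liver with and without hepatocyte *Lifr*. They were listed by name for their roles, with earlier results of these data known, and iron genes and *Scd1* were left out. Of the 35 genes, 34 have an entry in a table of 23793 genes, and 30 of them reached the mean of 0.5 FPKM needed for testing, as did 11687 genes in all. They fall into 4 groups, namely glutathione synthesis and use, NRF2 with KEAP1 and thioredoxin-system targets, lipid peroxidation substrates and drivers, and other antioxidants. RNA sequencing was done on whole liver of 3 *Lifr* fl/fl;Alb-Cre mice and 2 *Lifr* fl/fl mice on a C57BL/6 background at 12 weeks of age. All 5 mice carried floxed *Lifr* alleles. The *Lifr* fl/fl;Alb-Cre mice, whose genotype label reads Crealb/alb, also carried Cre recombinase under the albumin promoter, which is active in hepatocytes. No group carried Cre without the floxed alleles, so what comes from Cre and what from the lost receptor cannot be told apart. Levels are FPKM, the fragments mapped to a gene scaled to the length of its transcript and to all mapped fragments.

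Ferroptosis is a form of cell death in which iron drives the peroxidation of polyunsaturated phospholipids in membranes. Cells hold it back with glutathione, which GPX4 uses to reduce lipid peroxides, and with lipid-soluble radical traps such as reduced coenzyme Q. NRF2, encoded by *Nfe2l2*, is a transcription factor that KEAP1 marks for degradation until oxidative or electrophilic stress, and it then binds antioxidant response elements near genes of glutathione and thioredoxin metabolism. The liver is a main site of glutathione synthesis.

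The antioxidant response element core was searched in RefSeq promoters (GRCm38.p6, 250 bases before to 50 after the start), because NRF2 binds such elements near its targets. Bases further from the start were not searched. The letters searched were TGACNNNGC on either strand. Of the 35 genes, 30 matched a promoter entry and 7 held a match, namely *Gclm*, *Nfe2l2*, *Txnrd1*, *Srxn1*, *Prdx1*, *Ncoa4* and *Sod1*. The share over all 27025 genes with a promoter entry was 13.99%. In the NRF2 group 4 of 7 promoters held a match, that of *Nfe2l2* itself among them. Those of *Keap1*, *Nqo1* and *Txn1* held none. No entry was found for *Gclc*, *Gsr*, *Prdx6*, *Alox15* and *Dhodh*. The matches of *Gclm* and of the NRF2 group are shown in the orientation of the gene with 10 flanking bases on each side and the match in capitals. They lie at chr3:122245413-122245441 (+ strand) for *Gclm*, chr2:75704885-75704913 (- strand) for *Nfe2l2*, chr10:82859104-82859132 (+ strand) for *Txnrd1*, chr4:116685456-116685484 (+ strand) for *Prdx1* and chr2:152105542-152105570 (+ strand) for *Srxn1*, where the match lies after the start. A match is a description of letters and not a binding site.
Gclm: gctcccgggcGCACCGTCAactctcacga
Nfe2l2: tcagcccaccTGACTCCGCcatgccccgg
Txnrd1: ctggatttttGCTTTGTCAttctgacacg
Prdx1: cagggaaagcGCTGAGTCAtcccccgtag
Srxn1: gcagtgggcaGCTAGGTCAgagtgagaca

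*Lifr* (XLOC_006778), the targeted gene, encodes the leukemia inhibitory factor receptor. It had 32.8, 44.3 and 54.8 FPKM in *Lifr* fl/fl;Alb-Cre livers, against 132 and 151 FPKM in *Lifr* fl/fl livers. The groups did not overlap, and the log2 fold change was -1.71 (95% interval -2.15 to -1.28, limma adjusted p = 0.0045). Without the filter on low values the limma adjusted p was 0.51 over all 23793 genes and 0.062 over the 17270 genes above 0. With 1 *Lifr* fl/fl value left out, which leaves 1 value in that group, the log2 fold change was -1.61 or -1.81. Only 1 exon is deleted, and any reads of other exons or of other liver cells would count to *Lifr*. The source of the remaining level was not tested. In both groups each gene was deposited with its values sorted as text across columns (15586 of 15586 genes with distinct values), so a column is no mouse, and values are listed here from low to high. Depth is unknown, so precision rests on the spread between the mice. Trended eBayes in limma moves the spread of each gene toward that of genes of similar level.

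None of the 30 genes tested passed the threshold in either direction. At an adjusted p under 0.05 from limma, 0.359% of all genes tested were higher and 0.205% were lower with Alb-Cre, and the lowest adjusted p among the 30 genes was 0.18. The log2 fold changes ran from -0.58 for *Gclc* to 0.54 for *Gpx3*. Of them 17 were above 0 (56.7%, against 54.9% of all genes tested) and 13 below. Their median was 0.03, as over all genes tested (0.03), and the median size of the change was 0.14 against 0.13 over all genes. For 25 of the 30 genes the change was smaller than 0.25 on the log2 scale.

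The intervals give the sizes of change left possible by these 5 livers and by the variance that limma shares across genes. For 29 of the 30 genes the 95% interval lay between -1 and 1, that is, within a doubling or halving, as for 93.9% of all genes tested. The exception was *Por*. An unadjusted p under 0.05 was found for 2 genes with higher levels, *Gpx3* and *Acsl4*, against a background of 6.08% of all genes, and for 2 with lower levels, *Gclc* and *Nqo1*, against 3.56%. Leaving out 1 *Lifr* fl/fl value of each gene leaves 1 value in that group without a spread, so no such count is given for those rounds. Groups did not overlap with higher values for 4 genes (*Gpx3*, *Txnrd1*, *Acsl4* and *Sat1*) and with lower values for 3 (*Gclc*, *Nqo1* and *Cat*). Over all genes 15.1% and 10.7% had values that did not overlap in these directions, so the shares among the 30 genes, 13.3% and 10%, were near the background.

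**Figure D1:**
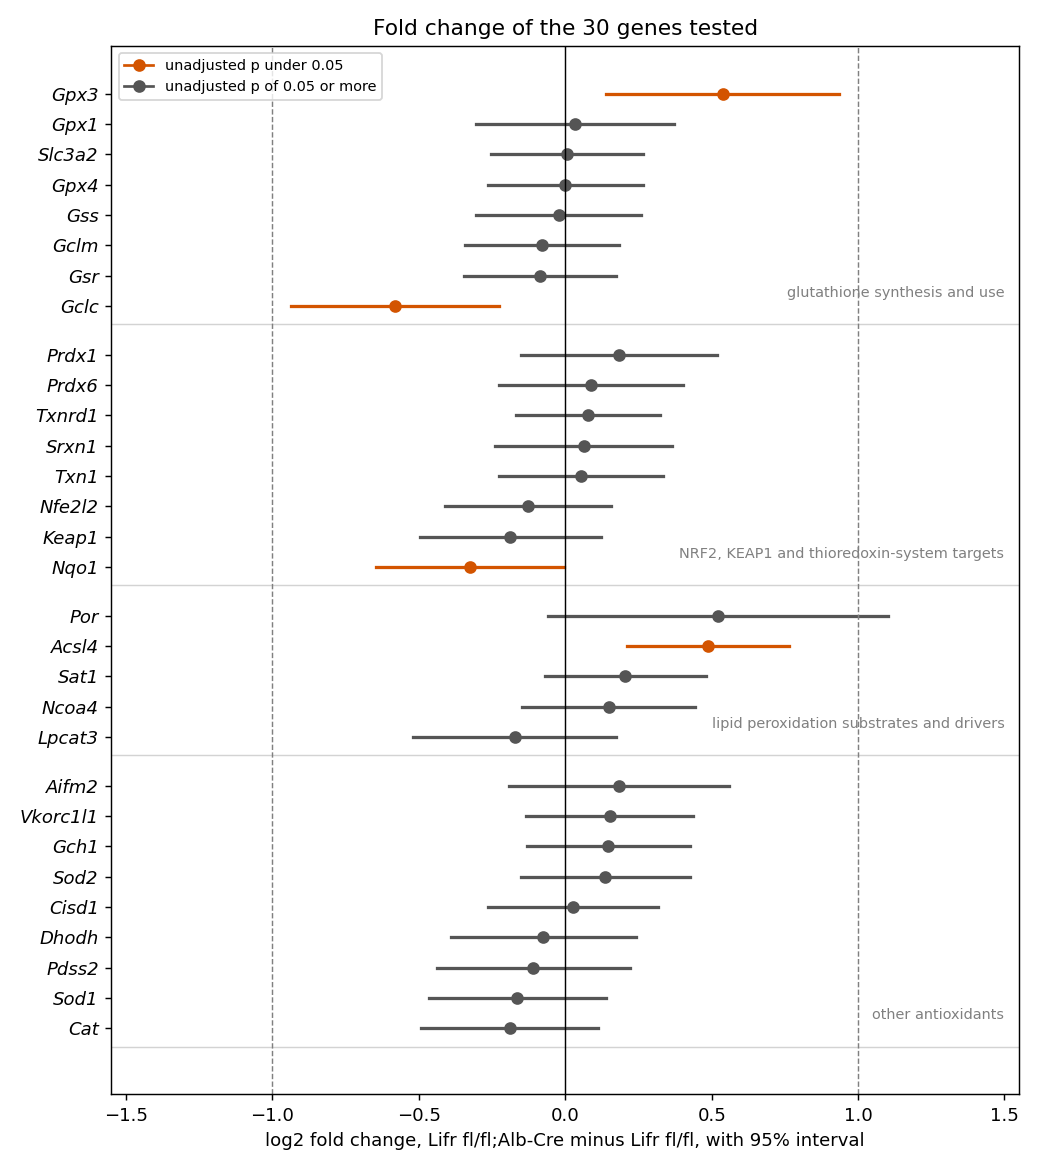
Log2 fold change (*Lifr* fl/fl;Alb-Cre minus *Lifr* fl/fl, x axis) with its 95% interval from limma for each of the 30 genes tested, ordered within the 4 groups. Dashed lines mark -1 and 1, and orange marks the 4 genes with an unadjusted p under 0.05, none of which passed after adjustment.

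The glutathione group covers cystine import, synthesis, recycling and use. *Slc7a11*, the cystine-specific chain of the cystine/glutamate exchanger, was barely detected. It had 0, 0.0155 and 0.0176 FPKM in *Lifr* fl/fl;Alb-Cre livers, against 0.00974 and 0.0101 FPKM in *Lifr* fl/fl livers. Both groups lie far under the minimum for testing, so no fold change is given. *Slc3a2*, the heavy chain that *Slc7a11* shares with other amino acid transporters, had 13.5 to 14.7 FPKM in *Lifr* fl/fl;Alb-Cre livers, against 13.6 to 14.2 FPKM in *Lifr* fl/fl livers (log2 fold change 0.01).

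*Gclc* (XLOC_021757, chromosome 9 from 77754535 to 77794489 in mm10) encodes the catalytic subunit of glutamate-cysteine ligase, the rate-limiting enzyme of glutathione synthesis. It had 71.3, 72.2 and 95.6 FPKM in *Lifr* fl/fl;Alb-Cre livers, against 108 and 129.6 FPKM in *Lifr* fl/fl livers. All 3 values of the *Lifr* fl/fl;Alb-Cre livers were below both others. The *Lifr* fl/fl;Alb-Cre livers averaged 79.7 ± 13.8 FPKM (SD, n = 3), against 119 ± 15.5 FPKM (SD, n = 2) for *Lifr* fl/fl. The log2 difference was -0.58 (standard error 0.16, 95% interval -0.94 to -0.22, limma adjusted p = 0.212). It was the lowest fold change of the 30 genes.

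*Gclm* encodes the modifier subunit of the same enzyme, and its groups lay closer together. It had 95, 102 and 107 FPKM in *Lifr* fl/fl;Alb-Cre livers, against 105 and 109 FPKM in *Lifr* fl/fl livers, with overlapping groups (log2 fold change -0.08, 95% interval -0.34 to 0.18, limma adjusted p = 0.858). The ratio of the mean of *Gclc* to that of *Gclm* was 0.787 in *Lifr* fl/fl;Alb-Cre livers, against 1.11 in *Lifr* fl/fl livers. The difference between the 2 subunits was not tested. *Gss*, glutathione synthetase, and *Gsr*, which regenerates reduced glutathione, had log2 fold changes of -0.02 and -0.09, and their groups overlapped.

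Among the glutathione peroxidases, *Gpx4* (XLOC_001609), the phospholipid hydroperoxide peroxidase at the centre of ferroptosis defence, was almost equal in both groups. It had 218, 219 and 235 FPKM in *Lifr* fl/fl;Alb-Cre livers, against 218 and 231 FPKM in *Lifr* fl/fl livers. Its groups overlapped, and its log2 fold change of -0.00034 had a 95% interval of -0.27 to 0.26 (standard error 0.12, limma adjusted p = 0.999). *Gpx1*, the cytosolic enzyme, was the most abundant of the 34 genes in FPKM, at 1767 to 2026 FPKM in *Lifr* fl/fl;Alb-Cre livers, against 1640 to 1995 FPKM in *Lifr* fl/fl livers (log2 fold change 0.03).

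*Gpx3* (XLOC_002637), the secreted plasma enzyme, was low in liver. It had 2.76, 3.31 and 4.10 FPKM in *Lifr* fl/fl;Alb-Cre livers, against 2.24 and 2.31 FPKM in *Lifr* fl/fl livers. The groups did not overlap, and the log2 fold change of 0.54 was the highest of the 30 genes (standard error 0.18, 95% interval 0.14 to 0.94, limma adjusted p = 0.338).

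**Figure D2:**
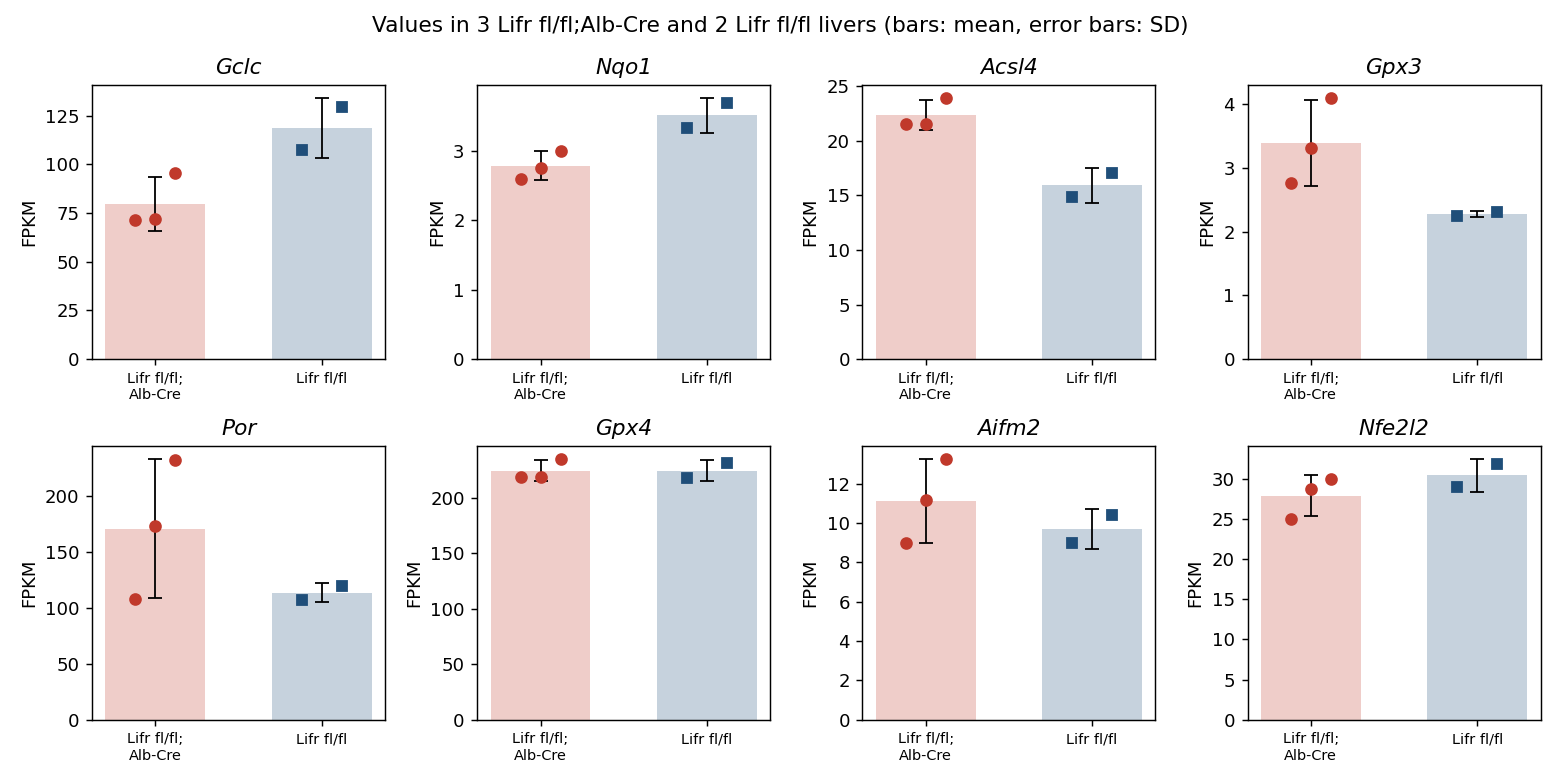
FPKM of 8 genes, with *Lifr* fl/fl;Alb-Cre livers (3 points) left of *Lifr* fl/fl livers (2 points), bars for the mean and error bars for the SD. *Gclc* and *Nqo1* have all 3 *Lifr* fl/fl;Alb-Cre values below both others, *Acsl4* and *Gpx3* have them above, and the other 4 genes overlap.

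The NRF2 group holds the factor, its repressor and 6 of its targets. *Nfe2l2* (XLOC_012167), NRF2 itself, had 25.0, 28.7 and 29.97 FPKM in *Lifr* fl/fl;Alb-Cre livers, against 29.0 and 31.9 FPKM in *Lifr* fl/fl livers (log2 fold change -0.13, standard error 0.13, 95% interval -0.41 to 0.16, limma adjusted p = 0.784). *Keap1* (XLOC_022095), its repressor, had 14.6, 17.9 and 18.4 FPKM in *Lifr* fl/fl;Alb-Cre livers, against 18.2 and 20.3 FPKM in *Lifr* fl/fl livers (log2 fold change -0.19, standard error 0.14, 95% interval -0.50 to 0.12, limma adjusted p = 0.712). For both the groups overlapped. NRF2 is controlled largely at the level of protein, which these data do not measure.

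*Nqo1* (XLOC_021207), a quinone reductase often used as an NRF2 readout, had 2.59, 2.76 and 3.01 FPKM in *Lifr* fl/fl;Alb-Cre livers, against 3.34 and 3.69 FPKM in *Lifr* fl/fl livers. All 3 values of the *Lifr* fl/fl;Alb-Cre livers were below both others. The log2 fold change was -0.33 (standard error 0.14, 95% interval -0.65 to -0.004, limma adjusted p = 0.512), the lowest of the group.

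The other 5 targets had fold changes above 0, none past the threshold. *Prdx1* (XLOC_014330), a peroxide-reducing peroxiredoxin, had 675, 739 and 830 FPKM in *Lifr* fl/fl;Alb-Cre livers, against 594 and 726 FPKM in *Lifr* fl/fl livers, the highest fold change of the group (0.18, standard error 0.15, 95% interval -0.15 to 0.52, limma adjusted p = 0.734). Its groups overlapped. *Txnrd1*, thioredoxin reductase, had 50.1, 50.5 and 50.6 FPKM in *Lifr* fl/fl;Alb-Cre livers, against 47.4 and 48.1 FPKM in *Lifr* fl/fl livers, without overlap but with a log2 fold change of only 0.08. *Txn1*, thioredoxin, *Srxn1*, which repairs overoxidised peroxiredoxins, and *Prdx6*, which also reduces phospholipid peroxides, had log2 fold changes of 0.05, 0.06 and 0.09 with overlapping groups, and those of *Srxn1* and *Prdx6* crossed 0 with 1 *Lifr* fl/fl value left out.

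Of the genes that supply or drive lipid peroxidation, *Acsl4* (XLOC_023608, chromosome X from 142317993 to 142390802 in mm10) had the lowest p of the 30 genes. It encodes the acyl-CoA synthetase that activates arachidonic acid for phospholipids, a substrate of ferroptotic peroxidation. It had 21.6, 21.6 and 23.9 FPKM in *Lifr* fl/fl;Alb-Cre livers, against 14.8 and 17.1 FPKM in *Lifr* fl/fl livers. All 3 values of the *Lifr* fl/fl;Alb-Cre livers were above both others, with a log2 fold change of 0.49 (standard error 0.12, 95% interval 0.21 to 0.77, limma adjusted p = 0.18).

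Markers of Kupffer cells, the macrophages of the liver, stood in the same direction. All 10 tested markers of 11 listed were above 0 on the log2 scale, against 54.9% of all genes tested. The median log2 fold change of these markers was 0.40, and none of them passed the threshold. Their summed level averaged 393 FPKM in *Lifr* fl/fl;Alb-Cre livers, against 292 FPKM in *Lifr* fl/fl livers, and no sum per library can be had. The lowest p values were those of *Vsig4*, with 29.5 to 34.7 FPKM in *Lifr* fl/fl;Alb-Cre livers, against 21.7 to 22.8 FPKM in *Lifr* fl/fl livers (log2 fold change 0.50, limma adjusted p = 0.169), and *Cd5l* (log2 fold change 0.51, limma adjusted p = 0.231). In whole liver, a change in the number of cells of a type and in RNA per cell cannot be told apart, and the part of these cells in the values of *Acsl4* and *Gpx3* was not tested. All 3 neutrophil markers tested, of 11 listed, were above 0 on the log2 scale with a median log2 fold change of 1.46. *S100a9* passed (log2 fold change 1.59, limma adjusted p = 0.0181), and *S100a8* had 3.06, 3.98 and 5.36 FPKM in *Lifr* fl/fl;Alb-Cre livers, against 1.03 and 1.91 FPKM in *Lifr* fl/fl livers, without overlap (log2 fold change 1.46, limma adjusted p = 0.059). The summed level of the list averaged 8.94 FPKM in *Lifr* fl/fl;Alb-Cre livers, against 3.50 FPKM in *Lifr* fl/fl livers, and the other 7 markers in the table, granule genes such as *Mpo* and *Camp* among them, averaged under 0.5 FPKM and were not tested. The part of neutrophils in the members' values was not tested. The hepatocyte marker *Alb* is listed at 0 in all 5 livers although 11 other hepatocyte markers were tested and none passed. Of these hepatocyte markers 7 were above 0 and 4 below. In the other marker lists no gene passed the threshold. Tested markers above and below 0 numbered 2 and 6 for endothelial cells, 3 and 5 for stellate cells and 3 and 2 for cholangiocytes. They were 1 and 1 for T and NK cells, 0 and 2 for B cells and 1 and 1 for erythroid cells. Platelet and megakaryocyte markers had 2 and 1.

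*Por* (XLOC_015954), cytochrome P450 reductase, which can feed electrons into lipid peroxidation, had the widest interval of the 30 genes. It had 108, 173 and 233 FPKM in *Lifr* fl/fl;Alb-Cre livers, against 107 and 119.9 FPKM in *Lifr* fl/fl livers. The lowest *Lifr* fl/fl;Alb-Cre value lay between the *Lifr* fl/fl values, so the groups overlapped (log2 fold change 0.52, standard error 0.26, 95% interval -0.06 to 1.10, limma adjusted p = 0.573). *Lpcat3* (XLOC_017269), which puts polyunsaturated acyl chains into phospholipids, had the lowest fold change of this group. It had 35.7, 44.4 and 47.4 FPKM in *Lifr* fl/fl;Alb-Cre livers, against 42.7 and 52.9 FPKM in *Lifr* fl/fl livers, with overlap (log2 fold change -0.17, standard error 0.15, 95% interval -0.52 to 0.17, limma adjusted p = 0.759).

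*Sat1*, which acetylates polyamines, and *Ncoa4*, the ferritin receptor of autophagy, had log2 fold changes of 0.20 and 0.15. The values of *Sat1* did not overlap, at 43.8 to 52.0 FPKM in *Lifr* fl/fl;Alb-Cre livers, against 39.9 to 42.7 FPKM in *Lifr* fl/fl livers. *Acsl3*, a synthetase that activates monounsaturated fatty acids, has no entry of its own, and its joint entry with *Utp14b* differed by a log2 fold of -0.18 (limma adjusted p = 0.804). The lipoxygenases were too low for testing. *Alox12* had 0.267 to 0.363 FPKM in *Lifr* fl/fl;Alb-Cre livers, against 0.129 to 0.208 FPKM in *Lifr* fl/fl livers, and *Alox5* and *Alox15* stayed under 0.1 FPKM in all 5 livers.

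**Figure D3:**
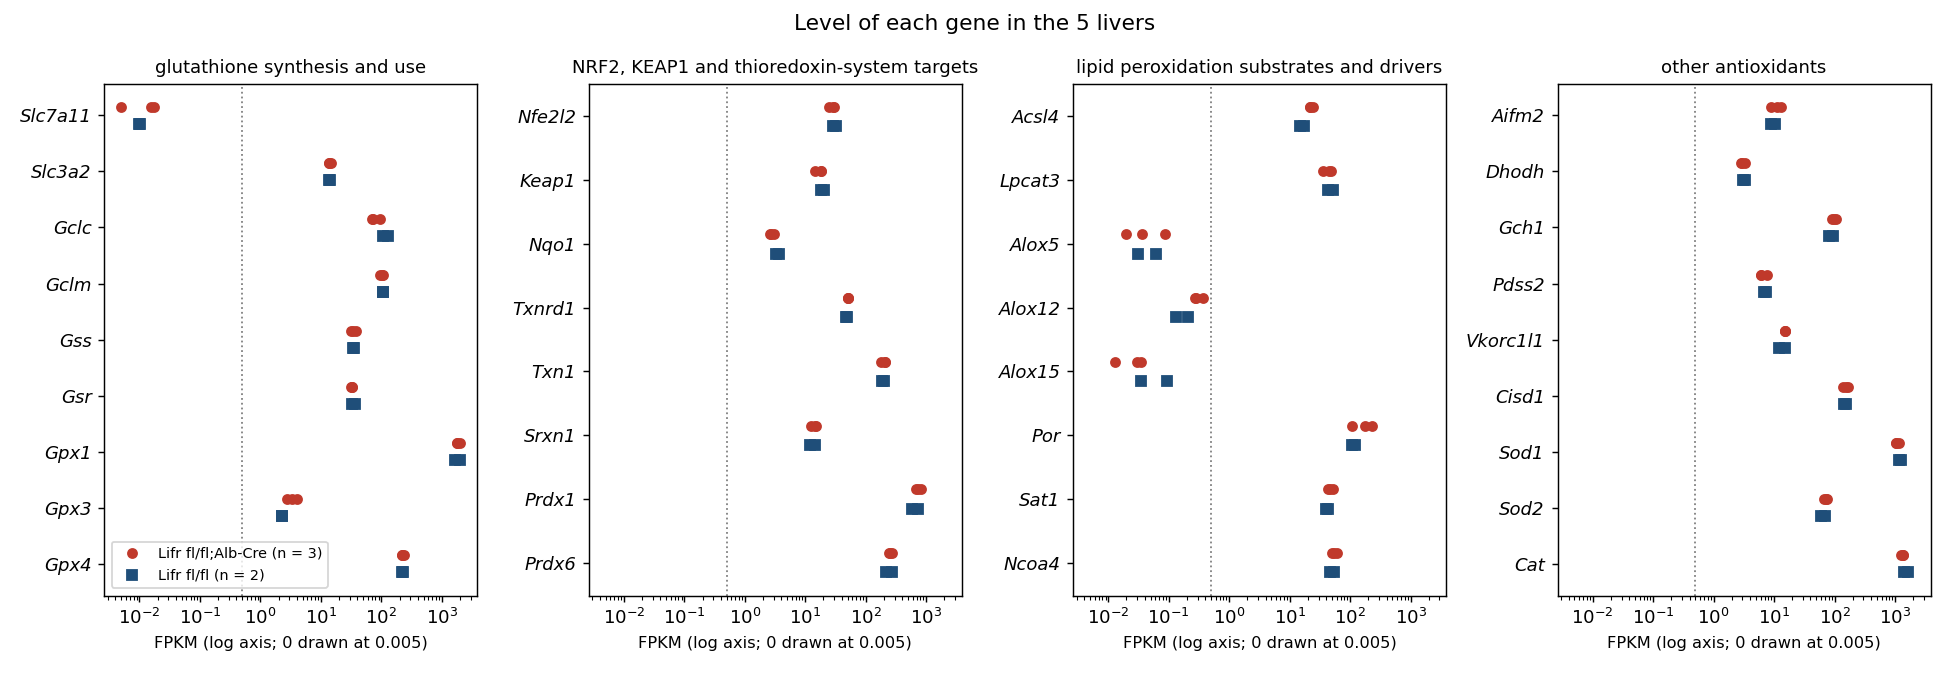
FPKM (log x axis) of the 34 genes with an entry, in 4 panels by group, with *Lifr* fl/fl;Alb-Cre livers (red circles) above *Lifr* fl/fl livers (blue squares). The dotted line is the minimum mean of 0.5 FPKM, which *Slc7a11* and the 3 lipoxygenases did not reach.

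The other antioxidants act beside glutathione. *Aifm2* (XLOC_001494), the coenzyme Q reductase also called FSP1, had 8.97, 11.2 and 13.2 FPKM in *Lifr* fl/fl;Alb-Cre livers, against 8.97 and 10.4 FPKM in *Lifr* fl/fl livers. The groups overlapped, and its log2 fold change of 0.18 was the highest of this group (standard error 0.17, 95% interval -0.19 to 0.56, limma adjusted p = 0.766). *Gch1*, which starts tetrahydrobiopterin synthesis, *Vkorc1l1*, a vitamin K reductase, and *Sod2*, mitochondrial superoxide dismutase, had log2 fold changes of 0.15, 0.15 and 0.14. *Cisd1*, an iron-sulfur protein of the outer mitochondrial membrane, had 0.03.

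Genes below 0 in this group included *Dhodh*, which reduces mitochondrial coenzyme Q (-0.07), *Pdss2*, which makes the coenzyme Q side chain (-0.11), and *Sod1*, cytosolic superoxide dismutase (-0.16). *Cat* (XLOC_012396), catalase, was the lowest. It had 1274, 1357 and 1372 FPKM in *Lifr* fl/fl;Alb-Cre livers, against 1433 and 1616 FPKM in *Lifr* fl/fl livers. The groups did not overlap, but the log2 fold change was only -0.19 (standard error 0.14, 95% interval -0.49 to 0.11, limma adjusted p = 0.704).

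Genes of the same pathways outside the 35 were read from 6 further lists, and none of their tested members passed the threshold. Over all genes tested 54.9% were above 0, and the counts above and below 0 in these lists were not tested against that share. Among 23 tested genes of glutathione and cysteine metabolism, 15 were above 0 and 8 below. *Csad*, which makes the taurine precursor hypotaurine from a cysteine product, had 29.5, 34.0 and 59.4 FPKM in *Lifr* fl/fl;Alb-Cre livers, against 94.8 and 99.0 FPKM in *Lifr* fl/fl livers (log2 fold change -1.31, 95% interval -1.86 to -0.76, limma adjusted p = 0.059). *Glrx*, glutaredoxin, had 36.5, 37.1 and 38.4 FPKM in *Lifr* fl/fl;Alb-Cre livers, against 24.1 and 27.0 FPKM in *Lifr* fl/fl livers (log2 fold change 0.55, limma adjusted p = 0.0955). Neither gene had overlapping groups, and they lay on opposite sides of 0.

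Of 26 tested NRF2 targets and partners, 9 were above 0 and 17 below, with a median log2 fold change of -0.09. *Me1*, the NADPH-producing malic enzyme, had 36.5, 37.4 and 40.2 FPKM in *Lifr* fl/fl;Alb-Cre livers, against 53.3 and 73.2 FPKM in *Lifr* fl/fl livers (log2 fold change -0.71, limma adjusted p = 0.0881). *Tkt*, transketolase, differed by a log2 fold of -0.29 (limma adjusted p = 0.455). Of 18 tested genes of phospholipid remodeling and lipid oxidation, 7 were above 0 and 11 below. *Elovl5*, which elongates polyunsaturated fatty acids, differed by a log2 fold of -0.59 (limma adjusted p = 0.201), and *Alox5ap*, the activating protein of 5-lipoxygenase, had 0.51 (limma adjusted p = 0.317).

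**Figure D4:**
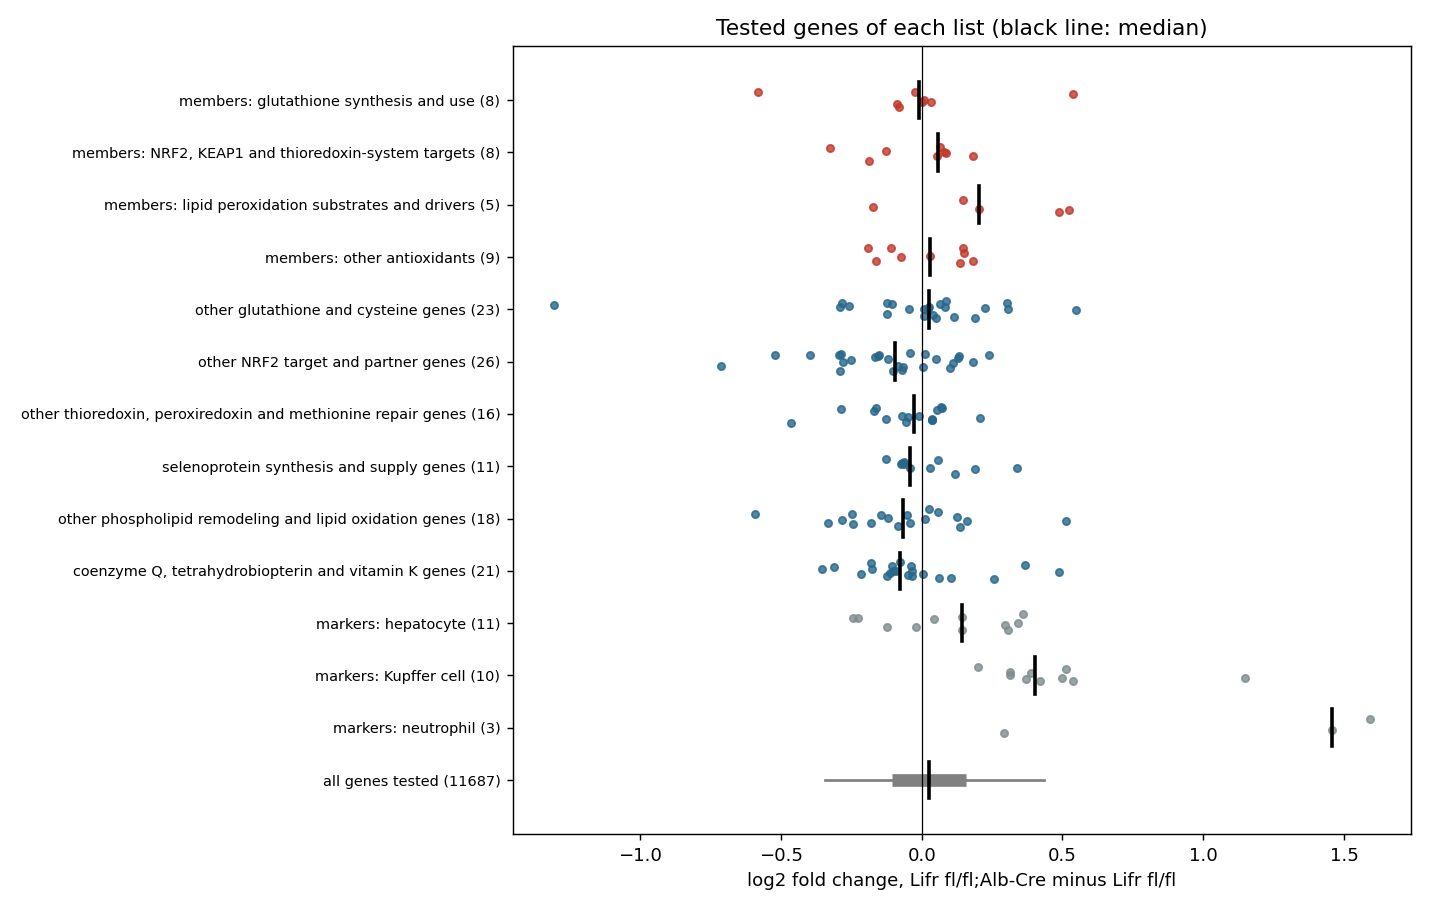
Log2 fold change (*Lifr* fl/fl;Alb-Cre minus *Lifr* fl/fl, x axis) of each tested gene by list, with the number tested in brackets, the black line at the median and, for all 11687 genes, a thick bar for the middle 50% and a thin line from the 5th to the 95th percentile. The medians of the member groups (red) and pathway lists (blue) lie between -0.09 and 0.20, the highest being that of lipid peroxidation substrates and drivers. Among the marker lists (grey), the 10 Kupffer cell markers and the 3 neutrophil markers all lie above 0, and of the 11 hepatocyte markers 7 lie above 0 and 4 below.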

How the data were processed

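Liver RNA of 3 *Lifr* fl/fl;Alb-Cre and 2 *Lifr* fl/fl mice was used. The authors mapped reads to mm10 with TopHat2 2.1.1, kept unique reads with SAMtools 1.5 after FastQC 0.11.5, and estimated the deposited FPKM values with Cufflinks 2.2.1 and RefSeq genes. The deposited fold, p-value and call columns hold the authors' own comparison and were not used. Genes averaging 0.5 FPKM or more across the livers entered limma 3.58.1 (R 4.3.3, lmFit and trended eBayes) on log2(FPKM + 0.1), which understates changes of low genes, and p-values were adjusted by Benjamini-Hochberg over every gene tested, with a threshold of 0.05. The procedure was tested on simulated data. Labels do not say more than that the mice are separate samples. An exact rank-sum test of 3 against 2 livers has 10 arrangements and a smallest two-sided p of 0.2, so none was run. Nothing that needs the values of one mouse was attempted. The members and lists were chosen with earlier results of these data known. All members are named. Full values are given for those with an unadjusted p under 0.05, the highest and lowest fold of each group, and a few central genes. Of the 6 other pathway lists, members past the threshold or else the 2 with the lowest p are named, and the cell type markers named were chosen after their values were seen. The settings varied were the pseudocount (1 or 0.01 FPKM), the filter (none, or at least 1 FPKM), the trend in eBayes (none), removal of the median shift, an adjusted p under 0.1 and leaving out 1 value per gene. In each such round the value left out was drawn at random for each gene. A round therefore leaves out no single mouse, and its counts and p-values depend on the draw. A fit on genes above 0 in at least 1 library was added after the result without a filter had been seen.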

Additional observations from a re-analysis of the deposited data

How the results depend on the processing

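The counts of genes past the threshold among the 35 stayed at 0 in each direction under every alternative that kept both *Lifr* fl/fl values, including an adjusted p under 0.1. The number with an unadjusted p under 0.05 was 4. It was 3 to 5 under the other settings and in the rounds that each dropped 1 *Lifr* fl/fl;Alb-Cre value of every gene. Without a filter on low values *Lifr* kept its log2 fold change of -1.71 but not its call (limma adjusted p = 0.51 over 23793 genes, many of them 0 in all 5 livers). Over the 17270 genes above 0 in at least 1 library, an alternative chosen after that result was seen, it was again -1.71 (limma adjusted p = 0.0623). With 1 value left out it ran from -1.89 to -1.51. Rounds that left out a *Lifr* fl/fl value kept 1 value in that group, so only their fold changes are read. Of 360 fold changes of members under the alternatives, 345 kept their direction and 15 did not. *Slc3a2* was -0.0181 with the median shift of all genes removed. With 1 value left out, 7 genes near 0 crossed it, namely *Cisd1* (-0.0426 to 0.10), *Gpx1* (-0.11 to 0.17), *Gpx4* (-0.043 to 0.0423), *Gss* (-0.10 to 0.034), *Prdx6* (-0.0784 to 0.25), *Slc3a2* (-0.0297 to 0.0362) and *Srxn1* (-0.0743 to 0.20). *Gclc* ran from -0.72 to -0.45, *Acsl4* from 0.39 to 0.59 and *Por* from 0.27 to 0.82. The cause was not tested. No paired analysis was possible because the columns of each group hold sorted values, so the number of a column names no mouse. With 2 and 3 livers and unknown depth, changes within the intervals given remain possible. The intervals do not give the size of change that would have passed the threshold. Those of *Gclc*, *Nqo1*, *Acsl4* and *Gpx3* excluded 0, yet none of these genes passed.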

Other observations

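The lists not yet described hold genes of selenium supply, of coenzyme Q, tetrahydrobiopterin and vitamin K metabolism, and of thioredoxin and peroxiredoxin function. Their counts above and below 0 stand beside 54.9% of all genes tested above 0, and the counts were not tested. *Sepp1*, selenoprotein P, which carries selenium out of the liver, had 3049, 3276 and 3853 FPKM in *Lifr* fl/fl;Alb-Cre livers, against 2469 and 2886 FPKM in *Lifr* fl/fl livers, without overlap (log2 fold change 0.34, limma adjusted p = 0.546). *Sephs1*, a selenophosphate synthetase homologue, differed by a log2 fold of 0.12 (limma adjusted p = 0.789). Of 11 tested genes of this list, 5 were above 0 and 6 below.

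Of 21 tested coenzyme Q, tetrahydrobiopterin and vitamin K genes, 6 were above 0 and 15 below, and none passed the threshold. *Adck3*, a kinase-like protein of coenzyme Q synthesis, differed by a log2 fold of -0.35 (limma adjusted p = 0.373), and *Coq10b*, a coenzyme Q-binding protein, had 0.37 (limma adjusted p = 0.401). Of 16 tested thioredoxin, peroxiredoxin and methionine repair genes, 7 were above 0 and 9 below. The stress-induced sestrins *Sesn2* and *Sesn3* stood at -0.46 and 0.21 on the log2 scale (limma adjusted p = 0.533 and 0.680).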
